A study of Mus musculus with 2 samples.

Results

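Closely paired CTCF peaks are autosomal ChIP-seq peaks whose nearest neighbour in the same peak list has its centre at most 2 kb away. They were thus chosen by measured peak positions in that list, and their distances are given as a description. They numbered 15945 of the 105572 peaks in the series, with 7852 of 51421 peaks in neural precursor cells (NPC) and 8093 of 54151 peaks in embryonic stem cells (ESC). Within the autosomes, 15.6% of the NPC list (95% interval 15.3 to 16.0) and 15.4% of the ESC list (15.1 to 15.7) belonged to them. The NPC were derived from E14 cells and grown on gelatin in N2-supplemented medium with human basic FGF and murine EGF. The ESC were E14Tg2A (IB10) cells kept in serum, conditioned medium and leukemia inhibitory factor. Both groups go back to 1 cell line, carry no stated genetic change, used the same anti-CTCF antibody and were sequenced on the SOLiD platform, with 1 library per cell type. The closely paired peaks were set beside spaced peaks, whose nearest neighbour lay over 2 kb and up to 20 kb away (28593 in NPC and 31053 in ESC).

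CTCF is a DNA-binding protein with an array of zinc fingers that recognises a long, non-palindromic sequence. It halts the cohesin complex as cohesin extrudes DNA, so many of its sites lie at the bases of chromatin loops, and the direction of the recognition sequence bears on which sites are joined. Neighbouring sites can each hold a CTCF molecule, and a boundary with several sites in a row can stop cohesin coming from either side. The series as a whole concerns binding polarity and looping; the question here is whether both members of a neighbouring pair are bound alike and found in both cell types.

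Each list gives a start, an end and a score per peak on mm9. The score is the authors' own, its definition is not stated, and it was compared only within a list, as a value or as a percentile among that list's autosomal peaks. The lowest score was 100.01 in NPC and 100.02 in ESC, and scores piled up at 3100, which 208 NPC peaks and 173 ESC peaks had exactly. Autosomal NPC peaks had a median width of 435 bp, against 577 bp in ESC. The track name in each file ends in CONTROL, a word the files do not explain; the lists were taken as CTCF peaks, as the labels have them. The lists hold no read counts, so depth is unknown. The spread between cultures is unknown too, and no p-value is given. Intervals treat peaks or pairs as independent and cover counting error only; since 2 members of a pair share a locus, intervals over peaks are too narrow.

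Neighbour distances were most frequent around 1 kb, and the shortest distances were missing from both lists. The most frequent 100 bp step of distance was 800 to 900 bp in NPC, with 581 peaks, and 1000 to 1100 bp in ESC, with 622 peaks. No NPC peak had a neighbour centre nearer than 229 bp, and no ESC peak nearer than 301 bp. No 2 peaks of a list overlapped, and the smallest gap between facing edges of a close pair was 1 bp in each list. Centres of 2 peaks that do not overlap cannot lie nearer than their mean width, so peak width limits the distances at the lower end. The limit of 2 kb fell on a smooth slope in both lists, with no break there.

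**Figure D1:**
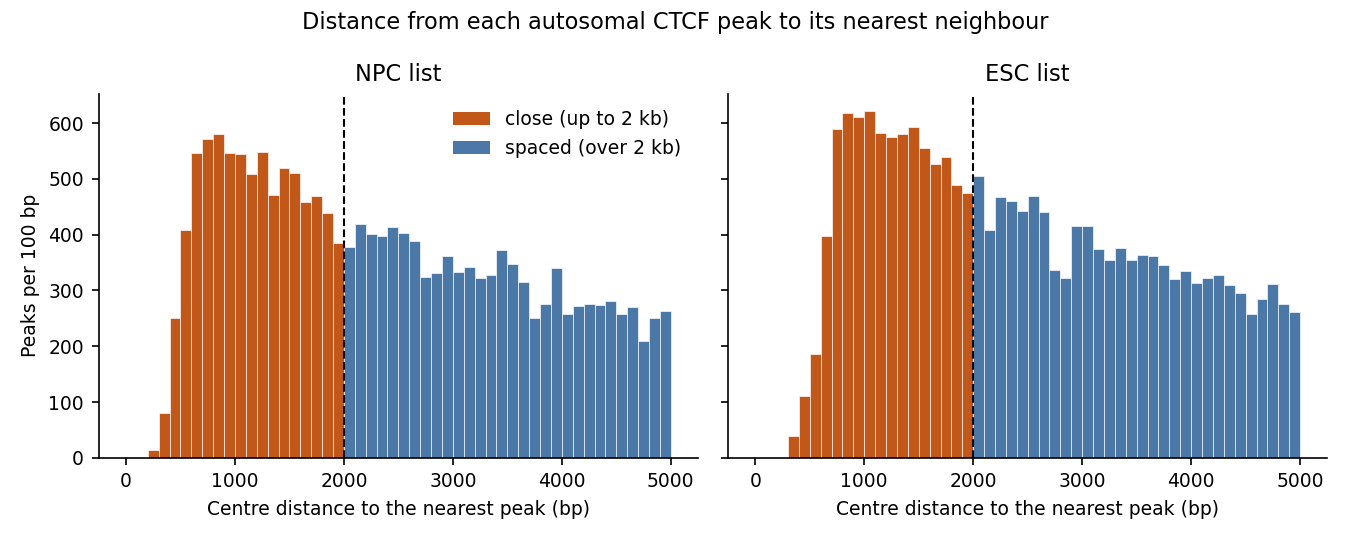
Number of autosomal CTCF peaks (y axis) by centre distance to the nearest peak of the same list in steps of 100 bp (x axis, up to 5000 bp), for NPC (left) and ESC (right). Close peaks are orange and peaks beyond 2 kb are blue; counts climb to a maximum of 581 peaks in NPC and 622 in ESC and then decline without a break at 2 kb, marked by the dashed line.

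Most close peaks stood in plain pairs, as the name says. In NPC 6682 of the close peaks (85.1%) formed chains of exactly 2 peaks, and in ESC 6784 (83.8%) did. Chains of 3 or more peaks with successive centres at most 2 kb apart held the other 1170 NPC peaks in 367 chains and 1309 ESC peaks in 412 chains. For all comparisons of members within a pair, 2 peaks were taken as a pair when each was the nearest neighbour of the other. This gave 3727 close NPC pairs and 3836 close ESC pairs, and 10057 spaced NPC pairs and 10725 spaced ESC pairs. The median spacing was 1158 bp in close NPC pairs, against 6106 bp in spaced NPC pairs, and 1232 bp in close ESC pairs, against 5970 bp in spaced ESC pairs. The next peak beyond the pair was a median of 7792 bp away from close NPC pairs and 6767 bp away from close ESC pairs. It lay within 5 kb of 35.6% of close NPC pairs and 39.3% of close ESC pairs.

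Close peaks had a slightly higher median score than spaced peaks in NPC, a difference that depended on the distances chosen, and in ESC the difference was within counting error. The median score of close NPC peaks was 461 (441 to 479; quartiles 201 and 992), against 422 (413 to 429; quartiles 191 and 921) for spaced NPC peaks. The difference of 39.4 score units (17.99 to 59.7) was small beside the spread within either class, and close peaks had the higher median on 16 of 19 autosomes. Close ESC peaks had a median of 577 (558 to 598; quartiles 226 and 1116), against 560.4 (549 to 570.0; quartiles 232 and 1092) for spaced ESC peaks. That difference was 16.2 (-4.68 to 40.2), with the higher median in close peaks on 10 of 19 autosomes. With spaced peaks taken only up to 10 kb, the NPC difference was 21.6 (-0.72 to 41.9) and the ESC difference -5.69, so that the NPC interval included 0. With a limit of 1 kb, and spaced peaks beyond it, the difference was -26.4 in NPC and -102 in ESC. Peaks with no neighbour within 20 kb scored lowest, with a median of 317 in NPC and 448 in ESC.

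In score percentiles, members of close pairs differed as much as members of spaced pairs did. In score units the median difference was slightly larger in close pairs, 415 against 389 in NPC and 495 against 477 in ESC. The higher-scoring member of close NPC pairs had a median score of 846 (814 to 869) and the lower-scoring member 231 (223 to 237), against 783 and 223 in spaced NPC pairs. In close ESC pairs the higher-scoring member had a median of 995 (971 to 1019) and the lower-scoring one 272 (261 to 284), against 968 and 275 in spaced ESC pairs. Sorting the members by score makes the first value the larger in any set of pairs, so only the comparison with spaced pairs is informative. In percentiles of the list, the members of close NPC pairs differed by a median of 27.1 points (26.0 to 28.3), against 27.1 points (26.4 to 27.7) in spaced NPC pairs. The difference between these medians was 0.06 points (-1.22 to 1.41). Members of close ESC pairs differed by 27.9 points (26.9 to 29.1), against 28.0 points (27.3 to 28.7) in spaced ESC pairs, a difference of -0.09 points (-1.37 to 1.22). A shift of more than 1.41 points in either direction thus lay outside both intervals. From the narrowest spacing class, up to 0.5 kb, to the widest, 10 to 20 kb, the median ranged between 26.2 and 31.6 points in NPC and between 22.5 and 28.5 points in ESC.

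**Figure D2:**
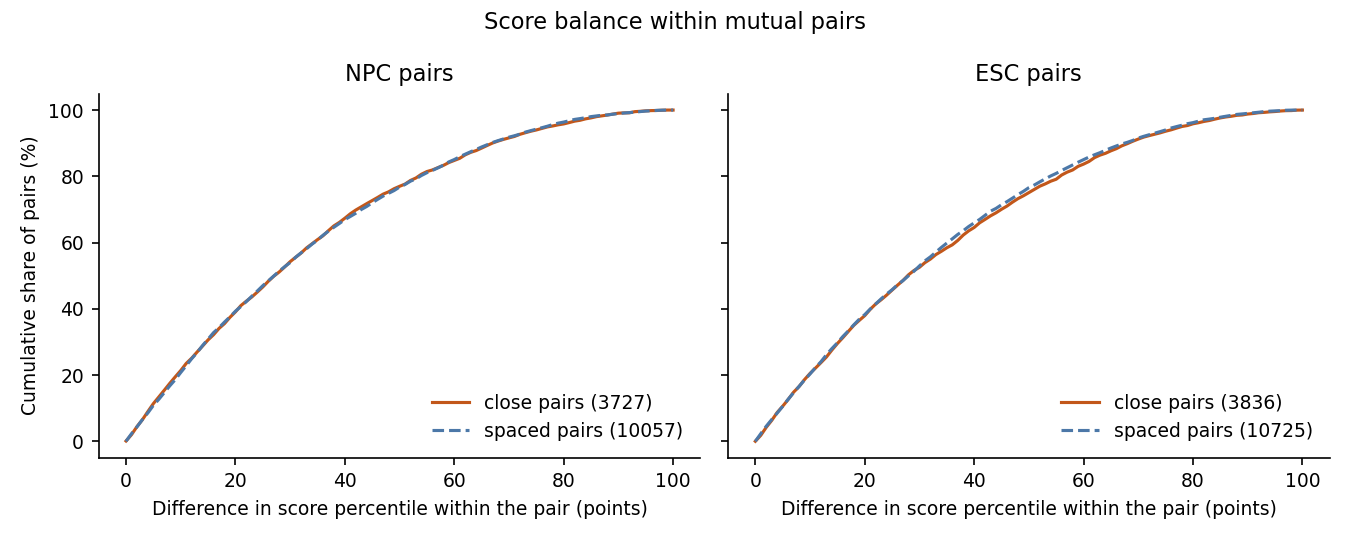
Cumulative share of mutual nearest-neighbour pairs (y axis, %) by the absolute difference of the members' score percentiles (x axis, points), for NPC (left) and ESC (right). The curves of close pairs (solid orange) and spaced pairs (dashed blue) lie nearly on each other, with medians of 27.1 points in close and 27.1 in spaced NPC pairs, and 27.9 points in close and 28.0 in spaced ESC pairs.

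The most lopsided close pairs joined a peak near the top of the list to one near its floor. On chromosome 19 an NPC peak at 5001828 to 5002587 scored 3100, and its neighbour at 5003615 to 5003872, 1536 bp away, scored 102; both overlapped ESC peaks. On chromosome 15 the NPC peak at 102300503 to 102300995 scored 3100 and overlapped an ESC peak. Its neighbour at 102301595 to 102301881 scored 104.55 and did not. The third NPC pair lay on chromosome 13, where the peak at 60278671 to 60278977 scored 101.4 and was unshared, while the one at 60279739 to 60280316 scored 2324 and was shared. In the ESC list the 3 most lopsided pairs each joined a shared peak of score 3100 to an unshared peak. On chromosome 5 the unshared ESC peak at 141094508 to 141094819 scored 101.4, with only 75 bp between it and the shared peak at 141094895 to 141096266. The others were on chromosome 1 (7386864 to 7387839, with 103 for the unshared peak at 7388159 to 7388672) and chromosome 10 (62771203 to 62772353, with 104 for the unshared peak at 62772875 to 62773327).

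With any overlap counted, close peaks were found in the other cell type about as often as spaced peaks. Sharing means an overlap of 1 bp or more with any peak of the other cell type, which held for 78.5% of all autosomal NPC peaks and 74.2% of all autosomal ESC peaks. Of the close NPC peaks 6286 were shared (80.1%, 79.2 to 80.9), against 22779 of the spaced NPC peaks (79.7%, 79.2 to 80.1). The difference was 0.39 percentage points (-0.62 to 1.38). Of the close ESC peaks 5924 were shared (73.2%, 72.2 to 74.2), against 23155 of the spaced ESC peaks (74.6%, 74.1 to 75.05), a difference of -1.37 points (-2.46 to -0.30). Since sharing climbed with score, spaced peaks were also weighted to the score bins of the close peaks, with 10 bins per list. The difference was then -0.65 points (-1.63 to 0.30) in NPC and -1.55 points (-2.60 to -0.51) in ESC, and close peaks were shared less often on 15 of 19 autosomes in each list. The unweighted NPC difference was -7.38 points with 50% reciprocal overlap, -8.64 points with centres within 100 bp and -1.48 points with a limit of 1 kb. It was 1.03 points (0.20 to 1.85) with a limit of 5 kb and 1.02 points (0.09 to 1.94) with distances between facing edges. With only the upper 50% of scores it was 1.10 points (0.25 to 1.83). The unweighted ESC difference was -6.36 points with a limit of 1 kb, 0.30 points with distances between facing edges and 0.22 points with only the upper 50% of scores.

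The deficit of close ESC peaks was widest among weak peaks. In the third of 10 ESC score bins (scores 188 to 265) 46.2% (42.7 to 49.8) of close peaks were shared, against 51.9% (50.1 to 53.8) of spaced peaks, with intervals that do not overlap. In the second bin 36.4% (33.0 to 39.9) of close peaks were shared, against 41.0% (39.2 to 42.8) of spaced peaks, with overlapping intervals. Close ESC peaks were below spaced ones in 9 of 10 bins, though by under 2 points in the other 7. Close NPC peaks were below in 6 of 10 bins, and their intervals overlapped those of spaced peaks in each. In the highest bin 99.7% of close peaks were shared in each list, against 99.7% of spaced peaks in NPC and 99.4% in ESC.

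**Figure D3:**
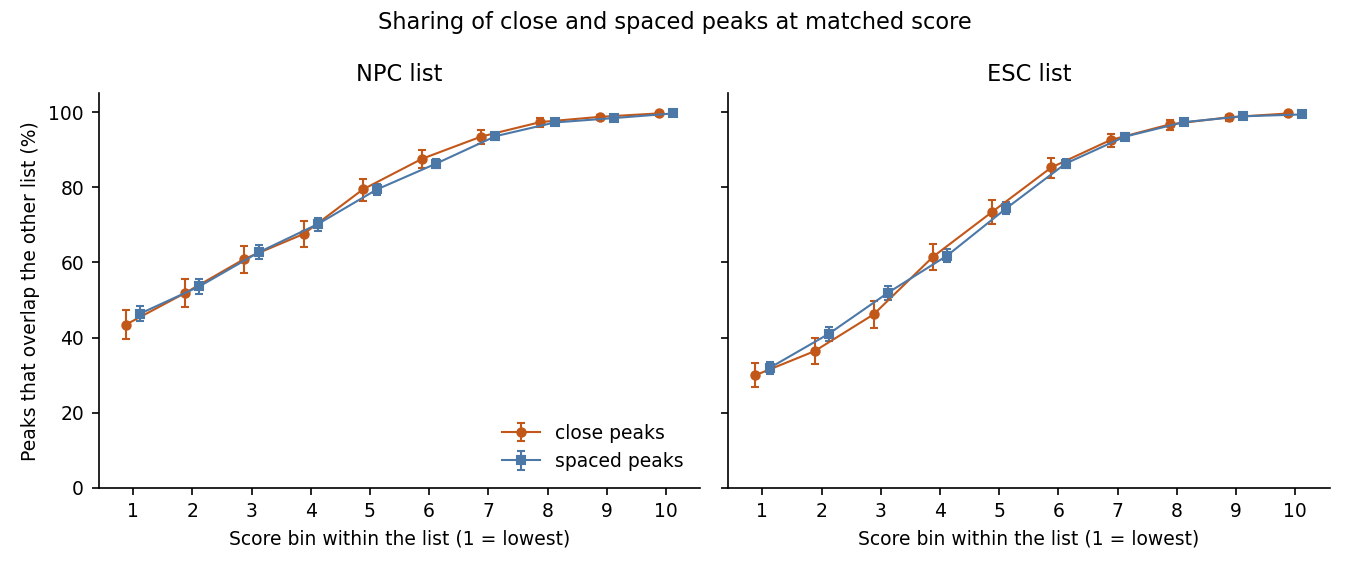
Share of peaks that overlap a peak of the other list (y axis, %) by score bin within the list (x axis, 1 is lowest), for NPC (left) and ESC (right); bars are exact 95% intervals. Close peaks (orange circles) follow spaced peaks (blue squares) closely, with the widest gap in the third ESC bin (46.2% of close and 51.9% of spaced peaks).

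Pairs in which neither member was shared were more frequent among close pairs in both lists. All mutual pairs up to 20 kb had both members shared in 65.5% of NPC and 57.4% of ESC pairs, and neither in 5.99% of NPC and 8.28% of ESC pairs. In close NPC pairs both members were shared in 2507 (67.3%, 65.7 to 68.8), 1 member in 951 (25.5%, 24.1 to 26.9) and neither in 269 (7.22%, 6.41 to 8.10). In spaced NPC pairs both were shared in 6520 (64.8%, 63.9 to 65.8), 1 in 2981 (29.6%, 28.7 to 30.5) and neither in 556 (5.53%, 5.09 to 5.99). Close ESC pairs had both members shared in 2154 (56.2%, 54.6 to 57.7), 1 member in 1304 (34.0%, 32.5 to 35.5) and neither in 378 (9.85%, 8.93 to 10.8). Spaced ESC pairs had both shared in 6209 (57.9%, 57.0 to 58.8), 1 in 3688 (34.4%, 33.5 to 35.3) and neither in 828 (7.72%, 7.22 to 8.24).

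The excess of pairs with neither member shared was 1.69 points (0.78 to 2.66) in NPC and 2.13 points (1.09 to 3.23) in ESC. It was 2.09 points (1.21 to 3.05) in NPC and 2.29 points (1.28 to 3.37) in ESC after spaced pairs were weighted to the score quintiles of both members of the close pairs. The share was higher in close than in spaced pairs on 15 of 19 autosomes in NPC and on 16 of 19 in ESC. Without weighting by score, pairs with spacing over 1 kb and up to 2 kb did not show it, with differences from spaced pairs of -0.04 points (-1.02 to 1.07) in NPC and 0.25 points (-0.86 to 1.46) in ESC. Beside spaced pairs of like score quintiles their shares with neither member shared were slightly higher in both lists. The separate intervals overlap, which does not exclude an excess, and intervals of these weighted differences were not computed. At 1 to 1.5 kb the shares were 5.64% against 4.61% in NPC and 7.79% against 6.33% in ESC. At 1.5 to 2 kb they were 5.32% against 4.51% in NPC and 8.19% against 6.99% in ESC. When only the upper 50% of the scores of each list was used to draw pairs, the unweighted excess was 0.25 points in NPC and -0.05 points in ESC. With a limit of 5 kb it was 0.19 points (-0.62 to 0.98) in NPC and 0.88 points (-0.02 to 1.78) in ESC, so that both intervals included 0. In NPC it was 8.89 points with 50% reciprocal overlap and 10.7 points with centres within 100 bp.

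Pairs up to 0.5 kb apart differed most from the rest in both lists. Of 172 such NPC pairs 17.4% (12.1 to 24.0) had neither member shared, against 10.1% in spaced pairs of like score quintiles. Of 75 such ESC pairs 53.3% (41.4 to 65.0) had neither shared, against 24.8% in spaced pairs of like quintiles. These ESC pairs were weak, with median scores of 318 for the higher and 123 for the lower member. Quintiles match such low scores only coarsely. The NPC pairs had median scores of 418 and 141. As peaks of a list did not overlap, pairs with centres up to 500 bp apart have a mean width of at most 500 bp. The ESC list had a median width of 577 bp, and spaced pairs were not matched on width. How far width bears on these shares was not tested. At 0.5 to 1 kb, neither member was shared in 8.87% (7.38 to 10.5) of 1297 NPC pairs and in 11.2% (9.47 to 13.2) of 1177 ESC pairs. In spaced pairs of like quintiles the shares were 5.46% in NPC and 8.52% in ESC.

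Many of the closest NPC pairs met a single ESC peak. In 387 close NPC pairs (10.4%, 9.42 to 11.4) both members overlapped the same ESC peak and no other, against 22 close ESC pairs (0.57%, 0.36 to 0.87) over 1 NPC peak. Of these NPC pairs 384 were at most 1 kb apart, 26.1% (23.9 to 28.5) of the 1469 NPC pairs that close; at up to 0.5 kb the share was 62.2%. The ESC peaks that covered them were wide, with a median of 1230 bp (quartiles 1054 and 1400 bp) against 577 bp in the list, and had a median score percentile of 94.9. In 275 of the 387 the ESC peak spanned both NPC peaks from edge to edge. Its centre lay between the NPC centres in 372, and it was nearer to the higher-scoring NPC member in 261 (67.4%, 62.5 to 72.1). Peak width thus moved with this result, and whether such a site holds 1 or 2 bound positions in ESC was not tested.

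When both members had to meet different peaks of the other list, close NPC pairs were below spaced ones. This held for 2120 close NPC pairs (56.9%, 55.3 to 58.5), against 64.8% of spaced NPC pairs, a difference of -7.95 points (-9.79 to -6.11). In ESC it held for 2132 close pairs (55.6%, 54.0 to 57.2), against 57.9% of spaced pairs, a difference of -2.31 points (-4.15 to -0.49). No spaced pair in either list had both members on the same peak, against 387 close NPC and 22 close ESC pairs. The requirement therefore lowered only the shares of close pairs. Between 1 and 2 kb the differences, without weighting by score, were 2.93 points (0.76 to 5.04) in NPC and 1.12 points (-0.999 to 3.23) in ESC. Spaced pairs of like score quintiles did not show this excess, and intervals overlapped. At 1 to 1.5 kb the shares were 67.0% against 68.1% in NPC and 59.4% against 60.7% in ESC. At 1.5 to 2 kb they were 68.7% against 68.5% in NPC and 58.6% against 59.8% in ESC. Without weighting by score, the sign of the comparison of both-shared NPC pairs rested on the definition of overlap: it was 2.44 points (0.65 to 4.19) with 1 bp, -7.03 points with 50% reciprocal overlap and -7.29 points with centres within 100 bp. With 1 bp and spaced pairs weighted to the score quintiles of the close pairs, the NPC difference was 0.86 points (-0.87 to 2.55), so that its interval included 0.

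**Figure D4:**
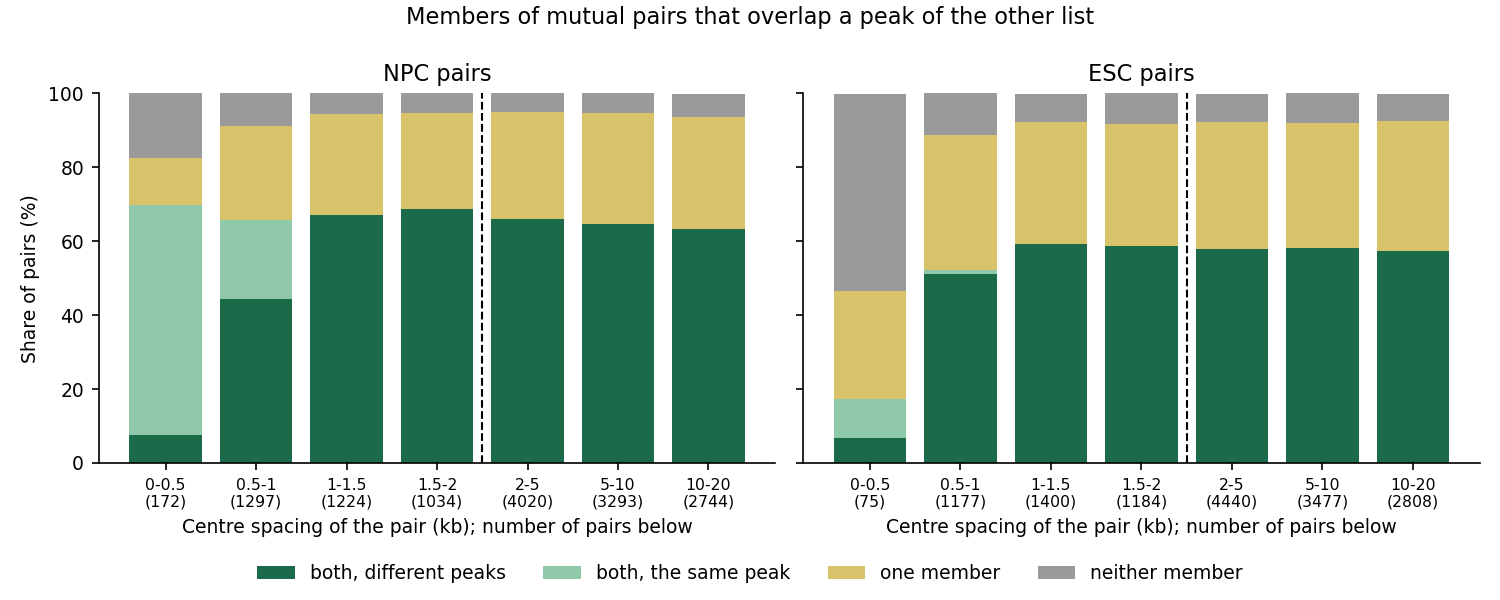
Share of mutual pairs (y axis, %) with both members overlapping different peaks of the other list (dark green), both overlapping the same peak (light green), 1 member overlapping (yellow) or neither (grey), by centre spacing (x axis, kb, with the number of pairs), for NPC (left) and ESC (right). Up to 0.5 kb the light green part reaches 62.2% of NPC pairs and the grey part 53.3% of ESC pairs, while spacings over 1 kb look alike on both sides of the dashed line at 2 kb.

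Where only 1 member was shared, it was mostly the higher-scoring one. This was so in 844 of 951 close NPC pairs (88.7%, 86.6 to 90.7), against 83.5% (82.1 to 84.8) of such spaced NPC pairs, a difference of 5.25 points (2.73 to 7.56). It was so in 1162 of 1304 close ESC pairs (89.1%, 87.3 to 90.7), against 86.4% (85.3 to 87.5) of spaced ESC pairs, a difference of 2.67 points (0.57 to 4.62). With spaced pairs weighted to the score quintiles of the close pairs, the differences were 3.79 points (1.34 to 5.97) in NPC and 0.98 points (-1.04 to 2.79) in ESC. The lower-scoring member was the shared one in 107 close NPC pairs and 142 close ESC pairs. The members of close pairs with 1 shared peak differed by a median of 40.6 percentile points in NPC and 43.3 in ESC, against 24.1 points in NPC and 23.9 in ESC in close pairs with both shared. Spaced pairs showed the same pattern, with 36.1 points in NPC and 38.5 in ESC where 1 member was shared. With both shared they differed by 24.3 points in NPC and 24.6 in ESC.

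Many close pairs were found again as close pairs in the other cell type. Of the close NPC pairs 2086 (56.0%, 54.4 to 57.6) overlapped different ESC peaks that were themselves at most 2 kb apart, and of the close ESC pairs 2107 (54.9%, 53.3 to 56.5) met such NPC peaks. These shares were 48.7% in NPC and 47.5% in ESC with 50% reciprocal overlap, and 36.96% in NPC and 43.8% in ESC with a limit of 1 kb. With only the upper 50% of scores they were 81.3% in NPC and 90.3% in ESC. In 2105 close NPC pairs each member met exactly 1 ESC peak, a different one. Their spacing differed between the lists by a median of 48.5 bp (quartiles 23 and 82 bp), and by at most 100 bp in 82.8% of pairs. In the 6512 spaced NPC pairs matched the same way, it differed by 46 bp (22 and 80 bp). Matching by overlap itself keeps spacing similar, so this is a description of how finely the sites coincide.

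**Figure D5:**
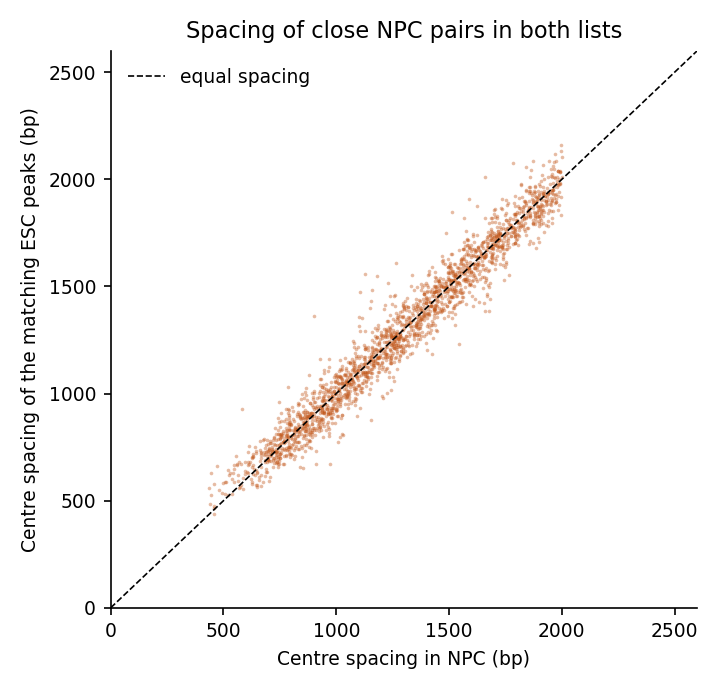
Centre spacing in ESC (y axis, bp) against centre spacing in NPC (x axis, bp) for the 2105 close NPC pairs whose members each met 1 different ESC peak; every point is a pair and the dashed line marks equal spacing. Points follow the line, with a median absolute difference of 48.5 bp.

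The order of strength within a pair mostly held across cell types. In the 2105 close NPC pairs, the same member had the higher percentile in both lists in 1587 (75.4%, 73.5 to 77.2), against 73.2% (72.1 to 74.3) of spaced NPC pairs, a difference of 2.17 points (0.01 to 4.27). Where the NPC members were over 25 points apart, the order held in 87.5% (85.3 to 89.4) of 1013 close pairs, against 83.8% (82.5 to 85.0) of 3182 spaced pairs, a difference of 3.68 points (1.17 to 5.99). Where they were up to 25 points apart, it held in 64.2% (61.3 to 67.0) of close pairs and 63.1% (61.5 to 64.8) of spaced pairs. Starting from ESC pairs, which are largely the same sites, the order held in 75.8% (73.9 to 77.6) of 2080 close pairs, against 72.9% (71.7 to 74.0) of 6075 spaced pairs, a difference of 2.96 points (0.78 to 5.08). The split by percentile gap looked different there. Over 25 points the order held in 87.0% (84.7 to 89.0) of close ESC pairs and 84.7% (83.4 to 86.0) of spaced ESC pairs, a difference of 2.25 points (-0.31 to 4.604). Up to 25 points it held in 65.5% (62.6 to 68.3) of close ESC pairs and 61.3% (59.6 to 63.0) of spaced ESC pairs. Across the close NPC pairs, the signed percentile difference in NPC and that in ESC had a Spearman's rho of 0.68, against 0.63 in spaced pairs; these are correlations across pairs within 2 libraries.

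Some close pairs had strong peaks in both positions. The NPC pair with the best weaker member lay on chromosome 11 at 117964060 to 117964715 and 117965126 to 117965827, 1089 bp apart, and both peaks scored 3100; their ESC matches were 1081 bp apart. The next were on chromosome 11 at 76459440 to 76460009 (score 2239) and 76460615 to 76461586 (score 2351), and on chromosome 2 at 32342594 to 32343345 (score 3100) and 32344030 to 32344666 (score 2220). The first ESC pair lay on chromosome 17 at 36960651 to 36961675 (score 2915) and 36962384 to 36963700 (score 2839), 1879 bp apart. It was followed by chromosome 6 at 72484008 to 72484658 (score 2495) and 72484867 to 72485782 (score 2603), and by chromosome 2 at 168727958 to 168728749 (score 2414) and 168729423 to 168730949 (score 2672). All 6 pairs were found as close pairs in the other list too.

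The pairs that ranked highest over all 4 peaks, in both lists together, lay on chromosomes 15, 5 and 13. On chromosome 15 the NPC peaks at 99299380 to 99300113 and 99301442 to 99302021 had percentiles of 99.4 and 97.8, and the ESC peaks there had 98.6 and 98.6, with spacings of 1985 bp in NPC and 1923 bp in ESC. On chromosome 5 the NPC peaks at 115068787 to 115069385 and 115070254 to 115070759 had 97.8 and 96.5, against 99.5 and 95.8 in ESC, with spacings of 1421 bp in NPC and 1414 bp in ESC. On chromosome 13 the NPC peaks at 62955965 to 62956614 and 62957447 to 62958302 had 94.1 and 98.9, against 97.0 and 99.1 in ESC. Here the right-hand member was the stronger in both lists.

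Whole pairs without a counterpart were mostly weak but included clear peaks. Of the 269 close NPC pairs with neither member shared, 258 (95.9%, 92.8 to 97.9) had both members over 1 kb from any ESC peak, and of the 378 close ESC pairs 353 (93.4%, 90.4 to 95.7) were that far from any NPC peak. Of the spaced pairs with neither member shared, 541 of 556 (97.3%, 95.6 to 98.5) in NPC and 817 of 828 (98.7%, 97.6 to 99.3) in ESC were that far away. The close and spaced intervals overlapped in NPC but not in ESC, where the close share was lower. Median scores of the higher and lower member were 269 and 136 in close NPC pairs, against 252 and 134 in spaced ones. They were 295 and 148 in close ESC pairs, against 299 and 146. Both members scored above their list's median in 8 of the close NPC pairs and 4 of the close ESC pairs, and in 10 spaced NPC pairs and 11 spaced ESC pairs. Ranked by the weaker member, the first NPC pair was on chromosome 1 at 34720805 to 34721337 (score 727) and 34721645 to 34722195 (score 856), with the nearest ESC peak 21023 bp away. The next NPC pairs were on chromosome 2 at 25719753 to 25720198 (score 705) and 25720746 to 25721400 (score 1289), and on chromosome 3 at 146445513 to 146445928 (score 518) and 146446667 to 146447085 (score 705). By the same rank the first ESC pair was on chromosome 10 at 67513614 to 67514199 (score 793) and 67514926 to 67515456 (score 660), with no NPC peak within 35051 bp. The others were on chromosome 18 at 37169949 to 37170701 (score 763) and 37170858 to 37171350 (score 656), and on chromosome 5 at 120151064 to 120151630 (score 606) and 120152920 to 120153548 (score 777).

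In some close pairs with 1 member shared, the member missing from the other list scored above its own list's median. This was so in 93 of 951 such NPC and 113 of 1304 such ESC pairs. Among spaced pairs with 1 member shared it was so in 339 of 2981 in NPC and 331 of 3688 in ESC. The close pairs with the highest-scoring unshared members are named here. On chromosome 15 the NPC peak at 80539918 to 80540473 scored 1734.5 and had no ESC overlap, 881 bp from the nearest ESC peak, while its weak neighbour at 80538574 to 80538897 (score 114) was shared. NPC pairs on chromosome 1 (unshared peak 78722213 to 78722879, score 1262) and chromosome 10 (unshared peak 118516255 to 118516825, score 1137) followed. The strongest ESC case was on chromosome 17, where the unshared peak at 47933489 to 47934438 scored 1662.5 and its shared neighbour at 47932179 to 47933017 scored 1485. The other ESC cases were on chromosome 8 (unshared peak 64177647 to 64178308, score 1638) and chromosome 18 (unshared peak 37126850 to 37127603, score 1534). This chromosome 18 peak ended only 52 bp from an NPC peak, so its call rests on a narrow margin.

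The longest run of close peaks was an NPC chain of 8 on chromosome 12 from 114454038 to 114462770, a span of 8733 bp. Its scores ran between 533 and 3100, all 8 peaks were shared, and they met 6 different ESC peaks. The next NPC chains had 5 peaks each. The one on chromosome 5 from 36737493 to 36742097 had 3 shared peaks, and its unshared peaks, with scores of 114 and 242, lay side by side in the chain. The one on chromosome 15 from 76753484 to 76758792 had 4 shared peaks, met 3 ESC peaks, and had its highest score of 2463 at the right-hand end. The longest ESC chain had 6 peaks on chromosome 5 from 125747110 to 125754383. Its only unshared peak was also its weakest, with a score of 103. ESC chains of 5 followed on chromosome 8 from 19980557 to 19986041 and on chromosome 10 from 81012805 to 81019622, and in each the weakest peak, with scores of 205 and 142, was the only unshared one. Over all chains longer than 2 peaks, 81.5% (79.2 to 83.7) of NPC peaks and 71.1% (68.6 to 73.6) of ESC peaks were shared, against 79.8% (78.8 to 80.8) of NPC peaks and 73.6% (72.5 to 74.6) of ESC peaks in chains of 2.

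Close pairing varied between autosomes by less than a factor of 2. The close share of NPC peaks was lowest on chromosome 12 (12.5%) and highest on chromosome 19 (18.6%), and that of ESC peaks was lowest on chromosome 12 (11.5%) and highest on chromosome 5 (18.7%). The share of close pairs with neither member shared ranged between 3.45% on chromosome 1 and 11% on chromosome 18 in NPC, and between 4.91% on chromosome 15 and 12.9% on chromosome 12 in ESC. Between 37 and 38 Mb of chromosome 18, the NPC list had 14 close peaks out of 48 (29.2%, 17.0 to 44.1), of which 13 were shared. The ESC list had 21 close peaks out of 87 there (24.1%, 15.6 to 34.5), of which 16 were shared.

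The pairs nearest to the limit of 2 kb are given as single cases. The widest NPC pair inside it, on chromosome 3, was 1999.5 bp apart with scores of 1845 and 187, and only the stronger member was shared. The narrowest NPC pair outside it, on chromosome 7, was 2000.5 bp apart with scores of 108 and 236, and neither was shared. The widest ESC pair inside it, on chromosome 11, was 2000 bp apart with scores of 1482 and 1038, and its NPC matches were 2063 bp apart, beyond the limit. The narrowest ESC pair outside it, on chromosome 7, was 2000.5 bp apart with scores of 543 and 3033, and its NPC matches were 1988.5 bp apart.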

How the data were processed

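The authors deposited 1 peak list per library, called with MACS per the file headers. Coordinates are on mm9, as the submitters' processing notes state. The version of MACS, its threshold and the aligner are not stated, and the only mention of a control is the unexplained suffix CONTROL in the track names. The score of each peak is the value the authors deposited, with no definition. Only autosomal peaks were used. Centres are midpoints, and coordinates are 1-based. Shares carry exact Clopper-Pearson 95% intervals and medians order-statistic intervals. Differences carry intervals built from those of both values (Newcombe's method, with Wilson limits for unweighted shares). Score-weighted shares of spaced peaks or pairs carry normal-approximation intervals with the weights taken as fixed, and these enter the weighted differences. Score standardisation used 10 bins per list for peaks and quintiles of both members for pairs. Overlaps were computed in Python 3.11.15 with numpy 2.4.6, pandas 2.3.3 and scipy 1.17.1 and checked against bedtools 2.31.1; plots used matplotlib 3.10.9. The pairing, sharing and standardisation steps were tested on simulated data. Named pairs follow fixed rules: per list the 3 with the highest weaker member, the 3 with the largest percentile difference, the 3 with neither member shared and the highest weaker member, the 3 with the strongest unshared member beside a shared one and the 3 longest chains; over both lists the 3 best kept pairs; and the pairs at the limit. Members, rules and alternatives were chosen with earlier results of these data known. No mm9 sequence or annotation was used, so motifs and genes were not analysed here.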

Additional observations from a re-analysis of the deposited data

Results flagged for a closer look

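With 1 library per cell type, the differences between close and spaced peaks, without weighting by score, had opposite signs in NPC and ESC for 3 measures, and the difference between the cell types was not tested. The share of peaks found in the other list differed by 0.39 percentage points in NPC and by -1.37 points in ESC, and the NPC interval includes 0. Weighted to like scores, both differences were negative (-0.65 points in NPC and -1.55 in ESC). The share of pairs with both members shared differed by 2.44 points in NPC and by -1.74 points in ESC, and the ESC interval includes 0. Weighted to like scores, it differed by 0.86 points (-0.87 to 2.55) in NPC and by -1.99 points (-3.75 to -0.24) in ESC. There the NPC interval includes 0 and the ESC interval does not. NPC pairs of which both members met the same wide ESC peak made up 10.4% of close NPC pairs. With these pairs kept in the total but not counted as both shared, the unweighted NPC difference was -7.95 points. The median percentile difference within pairs differed by 0.062 points in NPC and by -0.089 points in ESC, and both intervals include 0.

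Chromosome X was left out of the comparisons. It held 108 close peaks among 1226 NPC peaks (8.81%, 7.28 to 10.5) and 121 among 1492 ESC peaks (8.11%, 6.77 to 9.61), below the lowest autosomal shares of 12.5% in NPC and 11.5% in ESC. Of these, 87 NPC peaks and 87 ESC peaks overlapped a peak of the other list.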

How the results depend on the processing

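Differences here are close minus spaced, in percentage points for shares and in score units for medians. With a limit of 1 kb, the close share was 5.97% in NPC and 4.85% in ESC, the score difference -26.4 in NPC and -102 in ESC, the sharing difference -1.48 in NPC and -6.36 in ESC (-3.05 in ESC when score-standardised), the both-shared difference -7.87 in ESC, the neither-shared difference 4.35 in NPC and 5.97 in ESC, and 36.96% of NPC and 43.8% of ESC pairs were kept as pairs. With 5 kb, 34.9% of NPC and 35.9% of ESC peaks were close, the score difference was 63.6 in NPC and 56.0 in ESC, the neither-shared difference 0.19 in NPC and 0.88 in ESC, and 61.4% of NPC and 56.8% of ESC pairs were kept. With distance between facing edges, 19.4% of NPC and 20.6% of ESC peaks were close, the score difference was 63.0 in NPC and 70.3 in ESC, the ESC sharing difference was 0.30, the ESC both-shared and neither-shared differences were 0.30 and 1.005, and 59.2% of NPC pairs were kept. In the upper 50% by score, 10.1% of NPC and 9.05% of ESC peaks were close, the standardised sharing difference was 0.76 in NPC and -0.027 in ESC, the unstandardised one 0.22 in ESC, the both-shared difference 0.37 in ESC, the neither-shared difference 0.25 in NPC and -0.046 in ESC, and 81.3% of NPC and 90.3% of ESC pairs were kept. With 50% reciprocal overlap the NPC differences were -7.38 in sharing (-8.67 standardised), -7.03 both shared and 8.89 neither shared, and 48.7% of NPC and 47.5% of ESC pairs were kept. With centres within 100 bp they were -8.64 (-9.63 standardised), -7.29 and 10.7, the ESC neither-shared difference was 3.585, and 50.1% of NPC and 48.5% of ESC pairs were kept. With spaced peaks up to 10 kb the score difference was -5.69 in ESC and 21.6 (-0.72 to 41.9) in NPC, and with lists of equal length 14.7% of ESC peaks were close. With members required to meet different peaks, an alternative added after seeing the data, the NPC both-shared difference was -7.95. The cause of these shifts was not tested.

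The other 74 of 128 recomputed values stayed inside the interval of the reported value. Some of their own intervals include 0 where the reported one did not. These were the NPC score difference up to 10 kb and the ESC sharing difference with a limit of 5 kb. The NPC both-shared difference did so with a limit of 1 kb, with spaced peaks up to 10 kb and with no further peak within 5 kb. Other intervals excluded 0 where the reported one included it. These were the NPC sharing difference, above 0 with a limit of 5 kb, with facing edges and in the upper 50% by score. The ESC both-shared difference was below 0 with 50% reciprocal overlap, centres within 100 bp, spaced peaks up to 10 kb and different peaks required. The 74 values include all those without chromosome 15, with pairs that had no further peak within 5 kb and without scores at or above 3100. Score balance stayed inside its interval in each alternative run for it. No library could be left out. No paired analysis was possible because each cell type has 1 library. Depth is unknown, and a bound site too weak to be called in the other library would count as unshared.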

Other observations

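Close pairs whose facing edges were at most 100 bp apart fared differently in the lists. Of 299 such NPC pairs, 192 (64.2%, 58.5 to 69.6) met a single ESC peak and 39 (13.0%, 9.44 to 17.4) were kept as a close pair. Of 353 such ESC pairs, 18 (5.10%, 3.05 to 7.94) met a single NPC peak and 177 (50.1%, 44.8 to 55.5) were kept as a close pair. Close pairs with a wider gap were kept in 59.7% (58.0 to 61.4) of NPC and 55.4% (53.7 to 57.1) of ESC cases.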
